A study of Mus musculus with 6 samples.

Results

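Integrins are the αβ receptors through which cells hold on to the extracellular matrix, and focal adhesions are the protein assemblies that tie their tails to actin. The set described here comprises 38 listed mouse genes: 19 integrin subunits, 15 focal adhesion adaptors and kinases, and 4 further genes for matrix receptors and an integrin-binding tetraspanin. They were chosen by name, and 36 of them were measured, out of 30712 genes on the arrays. Each was read from a probe set that carried that gene's symbol alone, and the brightest on average was taken for a gene with several. Itga1, the α chain of a collagen receptor, was not analysed here because its probe set also names Pelo, and Ptk2, which encodes focal adhesion kinase, was not analysed here either.

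The cells were conditionally immortalized mouse podocytes, the glomerular epithelial cells whose foot processes line the urinary side of the filtration barrier. Total RNA came from an NCK1/2 knockout line, in which the adaptor genes Nck1 and Nck2 are targeted, and from a Wildtype line, both kept for 10 days on type I collagen to differentiate. Each line gave 3 arrays, which the submitters call independent; whether they were separate cultures is not stated, so p-values may measure only a technical spread. Since each genotype is represented by a line of its own, effects of the genotype and other differences between the lines cannot be told apart, and precision is limited by having so few arrays. Conditional immortalization and the collagen substrate are common to both lines, and how the knockout was made is not given in the sources used here.

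An integrin works only as a heterodimer: the α chain largely sets the ligand, and the β chain carries the tail that talin and kindlin bind. Many α chains share Itgb1 as partner, Itgav pairs with several β chains, and an unpaired chain is generally not brought to the cell surface. In podocytes the main laminin receptor is α3β1, which anchors the foot processes to the glomerular basement membrane with the tetraspanin CD151 beside it. Inside the cell talin activates the receptor, the complex of integrin-linked kinase (ILK), PINCH and parvin couples it to actin, and paxillin, p130Cas, Src and zyxin relay tension. Nck adaptors bind phosphotyrosines on such scaffolds and on nephrin, and PINCH proteins also bind Nck.

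Values are log2 probe set intensities, so a difference of 1 is a 2-fold change, and levels of different genes are not compared because probes differ in brightness. The brightest of 23 background probe sets averaged 7.78, and a mean at or below it is called within the background range. Array medians over genes ran from 7.08 to 7.22 and correlations across genes from 0.993 to 0.997 within a line and from 0.978 to 0.985 between lines. Nck1 averaged 8.12 ± 0.06 in knockout and 8.63 ± 0.10 in wildtype cells (SD, n = 3 each) and fell (limma adjusted p = 0.00391), while Nck2 averaged 7.24 ± 0.04 in knockout and 7.48 ± 0.13 in wildtype cells and did not pass (adjusted p = 0.0941), with both means within the background range. Where these probe sets lie relative to the targeted part of each gene is not known. Of 12 podocyte markers 8 were measured, none was called, and 4 of them (Nphs1, Wt1, Ptpro and Tcf21) had both means within that range. The mean level over those 8 ran from 7.82 to 7.85 in knockout and from 7.81 to 7.86 in wildtype arrays.

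Of the 36 genes, 7 rose and 7 fell in knockout cells (limma with Benjamini-Hochberg adjustment over all genes, adjusted p under 0.05) and 22 did not pass. Over all genes 12% were called, with 5.06% higher and 6.9% lower (1553 and 2120 genes, or 2365 and 1714 with each chromosome's median change taken off). The median log2 fold change of the 36 genes was 0.03, against 0.01 over all genes, and the median size of the change was 0.19, against 0.08. The members were brighter than most genes: among the 11395 genes whose mean over all 6 arrays lay above the background range 23.5% were called, and among the 22 members there 9 were called. The values of the lines did not overlap for 21 of the 36 genes, against 27.4% of all genes. Above the background range they did not overlap for 14 of the 22 members and for 5701 of the 11395 genes. Only Itgb6 was both called and changed by at least 2-fold, which held for 1.67% of all genes.

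**Figure D1:**
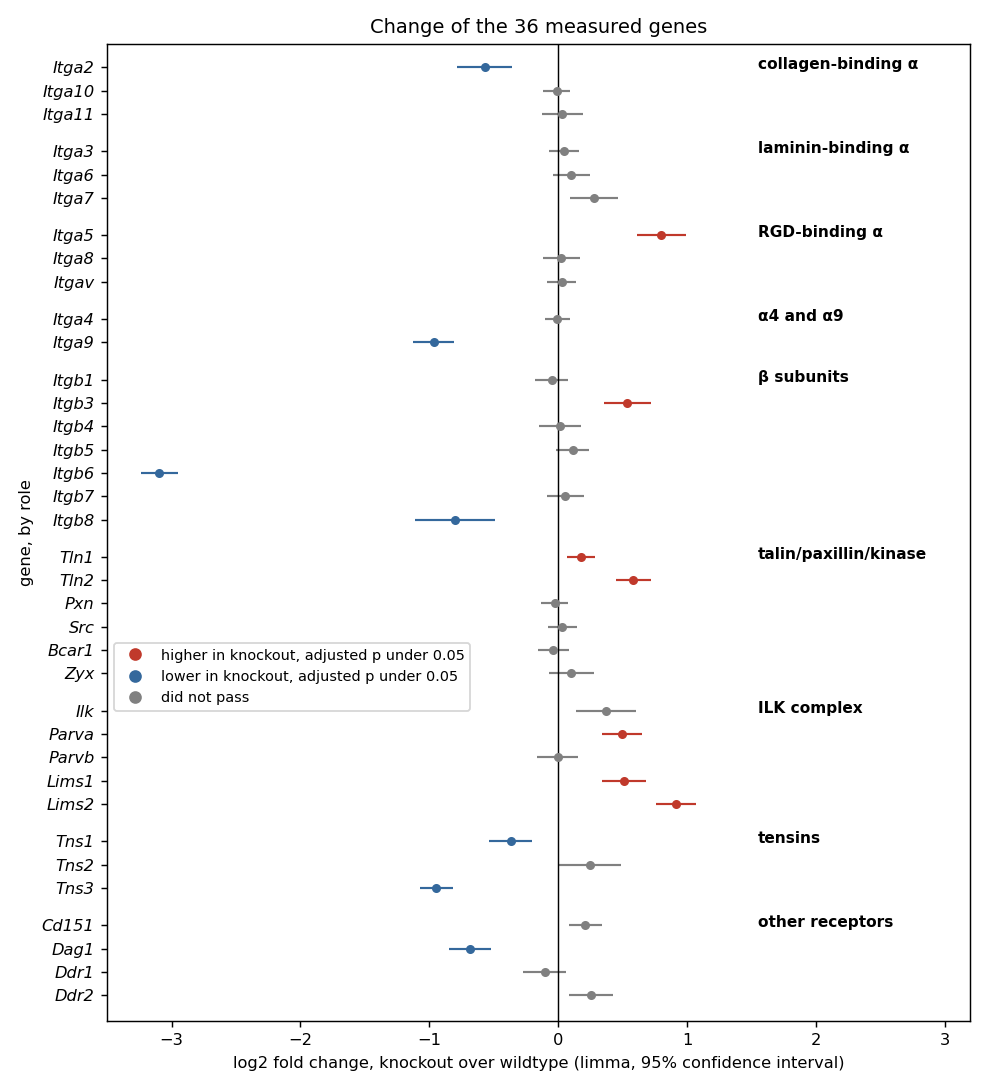
Log2 fold change of the 36 measured genes, knockout over wildtype, with 95% confidence intervals from limma and genes grouped by role down the page. Itgb6 lies at -3.09, and the others run from -0.97 for Itga9 to 0.92 for Lims2.

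The β chains held the largest change of the set. Itgb6, the epithelial chain that pairs with αv and can release active TGF-beta from its latent complex, read 7.30, 7.38 and 7.30 in the knockout arrays, against 10.33, 10.51 and 10.42 in the wildtype arrays. All knockout values were thus within the background range and all wildtype values well above it. The log2 fold change was -3.09 (SE 0.06, 95% confidence interval -3.24 to -2.95, limma adjusted p = 3.17e-06), so knockout cells kept 0.117 of the wildtype signal, a ratio that rests on a knockout level not separated from background. Itgb8, the other β chain of αv known for activating latent TGF-beta, read 7.25, 7.39 and 7.23 in knockout and 7.84, 8.35 and 8.08 in wildtype arrays. It fell by 0.80 on the log2 scale (adjusted p = 0.00992). That call was lost without knockout replicate 1 or without wildtype replicate 3 (adjusted p = 0.0517 in both cases, in a range from 0.00389 to 0.0517 over the alternatives).

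Another partner of αv went the opposite way. Itgb3, the β chain of the vitronectin receptor, read 7.41, 7.40 and 7.36 in knockout arrays, against 6.95, 6.69 and 6.91 in wildtype arrays, and rose by 0.54 on the log2 scale (SE 0.08, adjusted p = 0.00583). The lines did not overlap, but both means were within the background range. The remaining αv partner, Itgb5, was well above background, at 10.96 ± 0.06 in knockout and 10.84 ± 0.05 in wildtype cells, a difference of 0.11 (95% confidence interval -0.02 to 0.24) that did not pass, although the lines did not overlap. Itgb1, the chain shared by most α subunits, read 12.81, 12.81 and 12.67 in knockout and 12.81, 12.81 and 12.82 in wildtype arrays, a difference of -0.05 (-0.18 to 0.08). Itgb4, the hemidesmosomal chain that pairs with α6, and Itgb7, a lymphocyte chain, had both means within the background range and differed by 0.02 and 0.05.

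The sequences around the annotated starts of Itgb6 are shown because this gene carried the largest change, from 250 bases before to 50 bases after each start, as given by RefSeq for build GRCm38.p6. Itgb6 has 2 such starts on the minus strand of chromosome 2, at chr2:60722554-60722853 and chr2:60673644-60673943. The first lies at the 5′ end of the annotated gene and the second inside the gene. Capitals mark a CArG box, the site of serum response factor.
Itgb6 first start: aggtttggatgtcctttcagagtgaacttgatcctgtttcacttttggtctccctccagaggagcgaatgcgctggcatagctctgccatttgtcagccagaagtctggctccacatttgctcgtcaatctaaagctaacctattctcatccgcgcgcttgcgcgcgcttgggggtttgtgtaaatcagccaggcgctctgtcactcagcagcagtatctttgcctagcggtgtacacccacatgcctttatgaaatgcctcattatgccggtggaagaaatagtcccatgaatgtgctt
Itgb6 second start: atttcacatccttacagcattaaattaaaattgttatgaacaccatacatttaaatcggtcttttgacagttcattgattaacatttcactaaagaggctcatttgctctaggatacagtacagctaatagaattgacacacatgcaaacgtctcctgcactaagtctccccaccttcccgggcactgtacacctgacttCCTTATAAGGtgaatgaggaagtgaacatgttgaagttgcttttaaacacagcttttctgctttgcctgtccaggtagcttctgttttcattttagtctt
The search covered the CArG box, the AP-1 motif TGANTCA and the TEAD motif CATTCC, on both strands and with overlaps allowed. It found 1 match, a CArG box beginning 50 bases before the second start. Of 32851 promoters of this length 1.63% hold a CArG box, 7.81% the AP-1 motif and 14.7% the TEAD motif. Of the 28 members with a promoter searched, Itgb6 alone had a CArG box, 4 had the AP-1 motif (Ddr1, Itga3, Itga9 and Zyx) and 2 the TEAD motif (Itga10 and Itgb1). A member counts if any of its starts matches, while the shares are per promoter, so the member counts and the shares are not like measures. Some of the starts searched lie inside their gene, as for the second of Itgb6 and for Itga9, and which start the podocytes use was not measured.

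**Figure D2:**
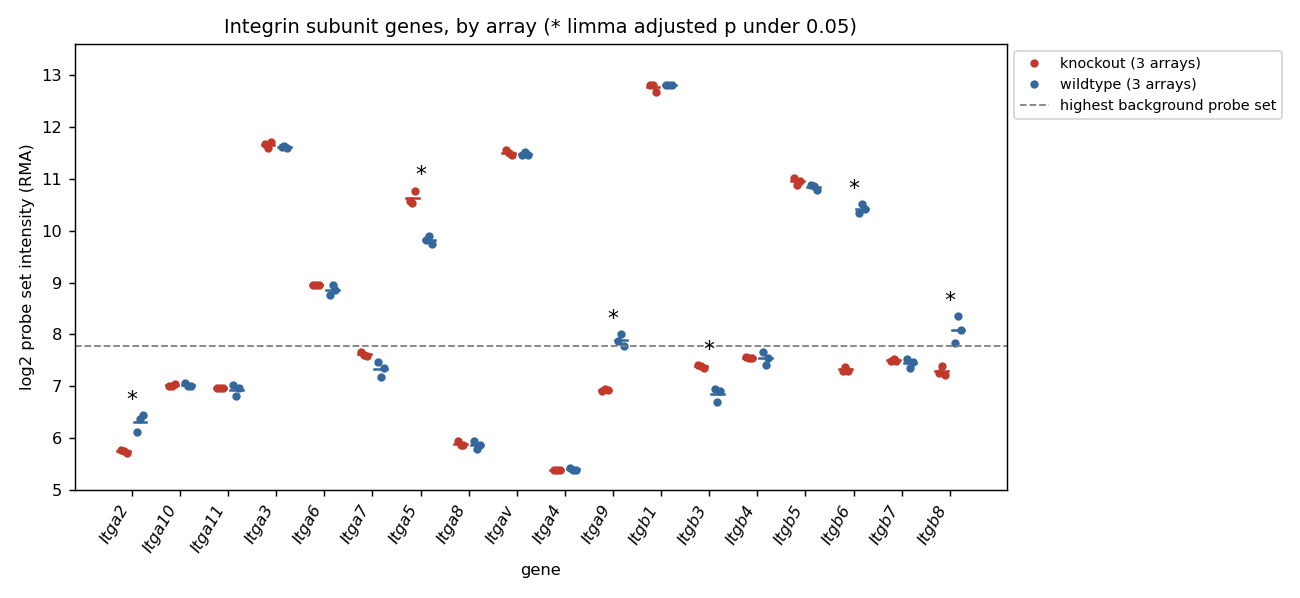
Log2 intensity of each of the 18 measured integrin subunit genes, 1 point per array with a bar at the mean, knockout left of wildtype, and the brightest background probe set as a dashed line. The 3 knockout values of Itgb6 lie below that line and the 3 wildtype values above 10, while Itgb1, Itga3 and Itgav lie at like levels in both lines.

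Among the α chains Itga5 rose. This chain forms the main fibronectin receptor with β1, and it read 10.58, 10.53 and 10.77 in knockout arrays, against 9.83, 9.90 and 9.75 in wildtype arrays. All knockout values stood above all wildtype values, with a log2 fold change of 0.80 (SE 0.08, adjusted p = 0.00145), a signal 1.74 times that of wildtype cells. Itgav, whose product also binds the RGD motif of fibronectin and vitronectin, averaged 11.51 ± 0.05 in knockout and 11.48 ± 0.03 in wildtype cells, a difference of 0.03 (95% confidence interval -0.09 to 0.14). Itga8, the nephronectin receptor chain known in the kidney from mesangial cells, had both means within the background range and differed by 0.03.

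Itga9 and Itga2 fell. Itga9, a β1 partner that binds tenascin-C, VCAM-1 and the large matrix protein encoded by Svep1, read 6.90, 6.94 and 6.92 in knockout arrays and 7.87, 8.01 and 7.78 in wildtype arrays. Its log2 fold change was -0.97 (SE 0.07, adjusted p = 0.000348), and the wildtype values lie only just above the background range. Itga2, a collagen receptor chain, read 5.76, 5.76 and 5.71 in knockout arrays, against 6.12, 6.38 and 6.44 in wildtype arrays, and changed by -0.57 (SE 0.09, adjusted p = 0.00878) with both lines within the background range. The other collagen-binding chains measured, Itga10 and Itga11, were also within that range and differed by -0.01 and 0.03, as was Itga4, the α chain of the VCAM-1 receptor of leukocytes, which differed by -0.01.

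The laminin-binding chains did not pass. Itga3, the α chain of the podocyte laminin receptor, read 11.67, 11.59 and 11.71 in knockout arrays and 11.61, 11.63 and 11.59 in wildtype arrays. The lines overlapped, and the difference of 0.04 had a 95% confidence interval of -0.07 to 0.16. Itga6 averaged 8.96 ± 0.003 in knockout and 8.86 ± 0.10 in wildtype cells, a difference of 0.10 (-0.04 to 0.24). Itga7, a laminin receptor chain best known from muscle, differed by 0.28 (0.09 to 0.46) without overlap and missed the threshold (adjusted p = 0.0705), with both means within the background range. It passed without wildtype replicate 1 (adjusted p = 0.04, in a range from 0.0176 to 0.216 over the alternatives).

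The chains were then read by heterodimer. Of 18 pairs 17 had both chains measured, and for 7 of them the per-array difference between α and β did not overlap between the lines. Relative to its partner the α chain gained in 4 of these (Itga5 and Itga7 with Itgb1, Itgav with Itgb6 and with Itgb8) and lost in 3 (Itga2 and Itga9 with Itgb1, Itgav with Itgb3). The exact two-sided permutation test over the arrays gave p = 0.1 for each of the 7, the smallest value that 3 against 3 arrays allow, and 0.243 adjusted over the 17 pairs. These 17 pairs share chains, Itgb1 standing in 11 and Itgav in 5, and are not independent of each other. Of the 7, only Itga5 with Itgb1 had both chains above the background range in both lines. Taken singly, 27.4% of all genes did not overlap, and no share was computed for pairs of genes.

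The αv receptors showed the widest spread among receptors that share a chain. The change of Itgav exceeded that of Itgb6 by 3.12 on the log2 scale and that of Itgb8 by 0.83, it fell short of that of Itgb3 by 0.51 (a difference of -0.51), and it differed from that of Itgb5 by -0.09 with overlapping arrays. For the fibronectin receptor the change of Itga5 exceeded that of Itgb1 by 0.85, with per-array SDs of 0.21 in knockout and 0.08 in wildtype cells. For Itga9 and Itgb1 the difference of changes was -0.91, and for the podocyte laminin receptor, Itga3 and Itgb1, it was 0.10 with overlapping arrays.

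**Figure D3:**
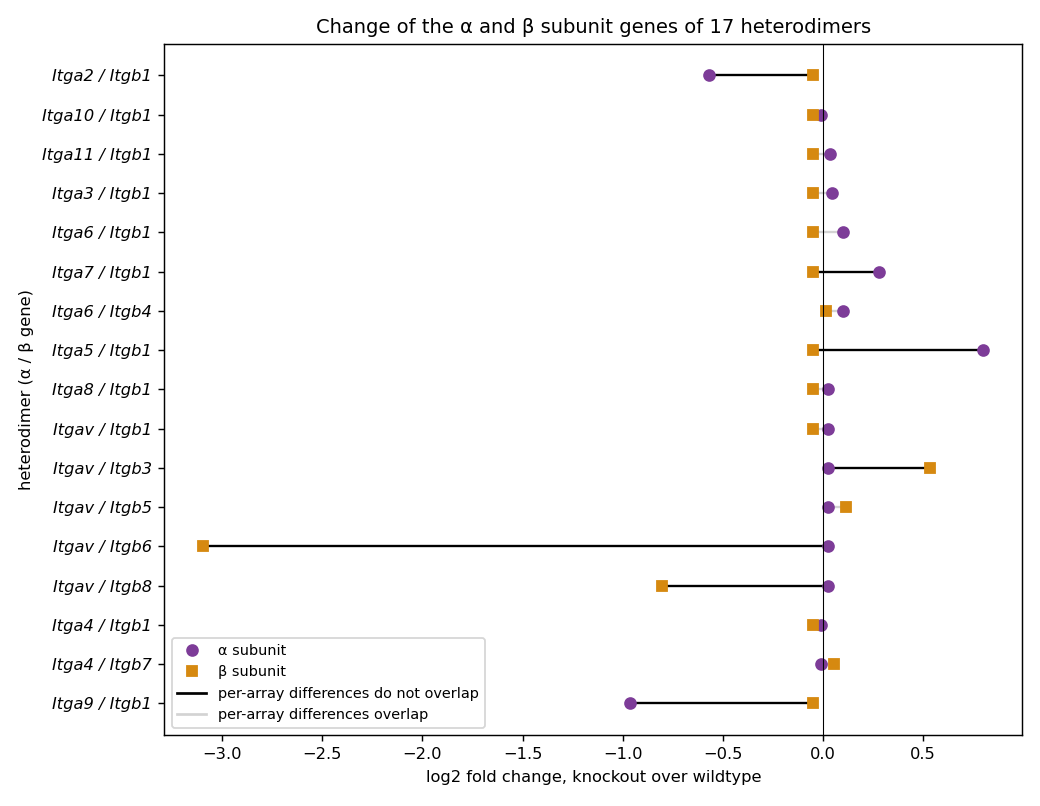
Log2 fold change, knockout over wildtype, of the α gene (circle) and the β gene (square) of 17 heterodimers, joined by a black line where the per-array differences of the lines do not overlap and by a grey line where they do. The longest line joins Itgav at 0.03 and Itgb6 at -3.09, and the line for Itga3 and Itgb1 is among the short ones.

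On the inner side of the receptor the talins rose and the signalling scaffold did not pass. Tln2, the talin of muscle and brain, read 8.31, 8.39 and 8.48 in knockout arrays and 7.80, 7.85 and 7.78 in wildtype arrays, a log2 fold change of 0.58 (SE 0.06, adjusted p = 0.0014) with no overlap. Tln1, the ubiquitous talin, read 10.12, 10.09 and 10.16 in knockout arrays, against 9.92, 9.97 and 9.95 in wildtype arrays, a log2 fold change of 0.18 that only just passed (adjusted p = 0.0494). It was lost when any single array was left out (adjusted p from 0.052 to 0.168, in a range from 0.0216 to 0.168 over all alternatives). The tension-relaying genes did not pass: Pxn, encoding paxillin, differed by -0.03 (95% confidence interval -0.13 to 0.08), Bcar1, encoding p130Cas, by -0.04 (-0.16 to 0.08), the kinase gene Src by 0.03 (-0.08 to 0.14) and Zyx, encoding zyxin, by 0.10 (-0.07 to 0.28). The lines overlapped for all of these but Zyx. Each of these 4 was above the background range in both lines.

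Genes of the ILK, PINCH and parvin complex were higher in knockout cells for 3 of the 5 measured, and none was lower, against 5.06% of all genes higher and 6.9% lower. Both means lay above the background range for 3 of the 5. Among the 11395 genes with a mean above that range 1147 were higher and 1536 lower. Lims1, which encodes PINCH1, read 10.45, 10.46 and 10.26 in knockout arrays and 9.81, 9.94 and 9.89 in wildtype arrays, and rose by 0.51 (SE 0.07, adjusted p = 0.0056). Its paralog Lims2 read 8.14, 8.24 and 8.28 in knockout arrays, against 7.35, 7.21 and 7.34 in wildtype arrays, where it was within the background range. Lims2 rose by 0.92 (SE 0.06, adjusted p = 0.000359), the largest rise of the set. Parva, the broadly expressed parvin, read 10.00, 10.08 and 10.21 in knockout arrays and 9.55, 9.64 and 9.60 in wildtype arrays, and rose by 0.50 (SE 0.07, adjusted p = 0.00454).

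The remaining members of that complex did not pass. Ilk itself, the pseudokinase at its centre, read 9.34, 9.28 and 9.63 in knockout arrays and averaged 9.04 ± 0.04 (SD, n = 3) in wildtype cells. It differed by 0.37 without overlap and missed the threshold (95% confidence interval 0.14 to 0.61, adjusted p = 0.0572), and knockout replicate 3 stood above the other knockout arrays. Without that array the difference was 0.27 and passed (adjusted p = 0.0412, in a range from 0.0239 to 0.16 over the alternatives). Parvb, with both means within the background range, differed by -0.004 (-0.17 to 0.16).

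The tensins, which bind β tails and actin and bear SH2 domains, diverged among themselves. Tns3 read 9.08, 9.05 and 9.13 in knockout arrays, against 9.99, 10.10 and 9.99 in wildtype arrays, and fell by 0.94 on the log2 scale (SE 0.05, adjusted p = 0.000147). Tns1 read 9.78, 9.72 and 9.95 in knockout arrays and 10.18, 10.22 and 10.15 in wildtype arrays, and fell by 0.37 (SE 0.07, adjusted p = 0.0172). The Tns1 call was lost without any one of 5 of the 6 arrays (adjusted p from 0.0579 to 0.0796) and held without knockout replicate 3, in a range from 0.0044 to 0.0796 over all alternatives. Tns2, a tensin of the podocyte whose loss causes kidney disease in mice, read 9.19, 9.19 and 9.50 in knockout arrays and 9.10, 9.11 and 8.94 in wildtype arrays, a difference of 0.24 that did not pass (adjusted p = 0.207).

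Set against its paralog on the same arrays, each of 7 pairs differed without overlap. Taken singly, 27.4% of all genes did not overlap, but that is not a like measure, and no share was computed for pairs of genes. Parvb and Ddr2 had both means within the background range, and Lims2 its wildtype mean. The 3 tensin pairs share their genes and are not independent of each other. The change of Tns2 exceeded that of Tns3 by 1.19 and that of Tns1 exceeded that of Tns3 by 0.57. Lims2 gained on Lims1 (difference of changes -0.41 for Lims1 minus Lims2), Tln2 on Tln1 (-0.41 for Tln1 minus Tln2) and Parva on Parvb (0.50). The exact two-sided permutation p was 0.1 for all 7, before and after adjustment, the smallest that this number of arrays allows.

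**Figure D4:**
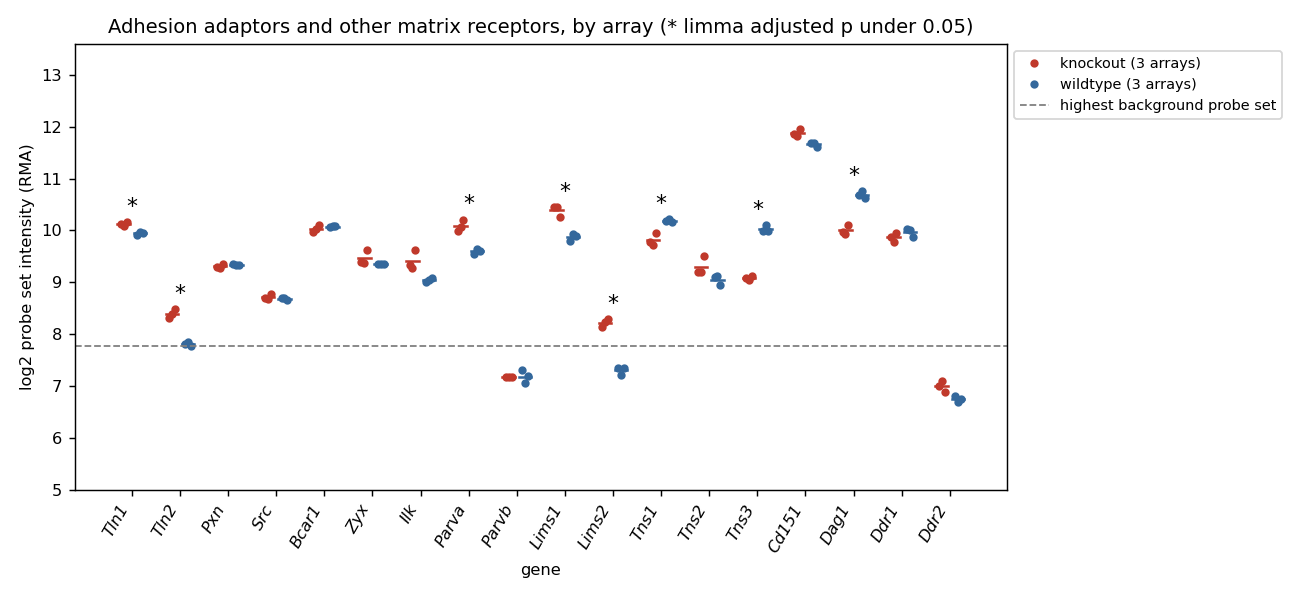
Log2 intensity of the 18 measured adaptor, kinase and other receptor genes, 1 point per array with a bar at the mean, knockout left of wildtype, and the brightest background probe set as a dashed line. Parva, Lims1 and Lims2 lie higher in the knockout arrays, Tns3 and Dag1 lower, and Pxn, Src and Bcar1 at like levels.

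Of the other matrix receptors Dag1 fell. It encodes dystroglycan, a laminin and agrin receptor that lies outside the integrin family, and it read 9.97, 9.93 and 10.11 in knockout arrays, against 10.68, 10.76 and 10.62 in wildtype arrays. The log2 fold change was -0.68 (SE 0.07, adjusted p = 0.00145). The collagen receptor kinase genes did not pass: Ddr1 averaged 9.86 ± 0.09 in knockout and 9.97 ± 0.09 in wildtype cells, and Ddr2 differed by 0.25 within the background range (adjusted p = 0.0696). Cd151, the tetraspanin beside α3β1, read 11.85, 11.83 and 11.95 in knockout arrays and 11.69, 11.70 and 11.62 in wildtype arrays, a difference of 0.21 (95% confidence interval 0.08 to 0.34) that missed the threshold (adjusted p = 0.055). Cd151 passed where dim genes were not tested (adjusted p = 0.0236 for genes above the background range, in a range from 0.0236 to 0.204 over the alternatives).

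Chromosomal neighbours of the called genes were read as context, up to 5 measured protein-coding genes on each side. The 14 called genes had 137 such neighbours, of which 29 were called (21.2%). The share called was 12% over all genes and 23.5% over genes with a mean above the background range. No share was computed for protein-coding genes alone, so an excess around the called genes was not tested. The median change of each called gene's neighbours lay between -0.19 and 0.10. Beside Itgb6 on chromosome 2, Pla2r1 differed by -0.03 and Rbms1 by 0.06, and of its 10 neighbours 1 was higher and 1 lower, in a range from -0.57 to 0.87. Beside Itgb8, Abcb5 and Macc1 each differed by 0.03, and none of its 7 neighbours was called. None of the 10 neighbours of Itga5 or of Itgb3 was called. Named after their values were seen, the tropomyosin genes Tpm2 (0.99) and Tpm1 (0.40) lie beside Tln1 and Tln2. On their other side Tln1 has Creb3 (0.33) and Tln2 has C2cd4b (0.08).

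Other genes of focal adhesions gave more rises than falls. Of 44 measured focal adhesion genes outside the set, 15 rose, 3 fell and 26 did not pass, against 5.06% higher and 6.9% lower over all genes, with a median of 0.07. Both means lay above the background range for 30 of the 44. Among the 11395 genes with a mean above that range 1147 were higher and 1536 lower. The actin-binding Nexn changed most, averaging 7.58 ± 0.18 in knockout and 5.94 ± 0.14 in wildtype cells, both within the background range (log2 fold change 1.64). Pdlim5, a PDZ and LIM protein of actin bundles, rose by 1.42, Layn, a hyaluronan receptor that binds talin, by 1.42 and Kank1, which binds talin at the adhesion rim, by 1.15, the last 2 from wildtype means within the background range. Picked from the rising genes after their values were seen were Fermt2, encoding kindlin-2 (0.75, SE 0.06), the talin-binding vinculin gene Vcl (0.50, SE 0.05) and the actin crosslinker gene Actn1 (0.72, SE 0.05). This choice could show only rises. The other kindlin genes Fermt1 and Fermt3 differed by 0.006 and 0.02 within the background range and did not pass. Neither did Kank2 (0.28) nor, within the background range, Kank3 (-0.01) and Kank4 (0.08). The focal adhesion genes of this list that fell, named for being so few, were Lpxn, a paxillin relative (-0.70, within the background range), the Rac exchange factor gene Dock1 (-0.51) and Pak3 (-0.30). The Pak3 call was lost without knockout replicate 1 or 2 or wildtype replicate 2 or 3, and its value was -0.09, not called, with chromosome medians taken off.

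Among the matrix ligands the median size of the change was 0.36 for collagens and laminins and 0.30 for the other ligands, against 0.19 for the set, and it ran in both directions. Of 27 collagen, laminin and related genes 11 rose and 5 fell, with a median of 0.04. Of 26 other integrin ligands 10 rose and 4 fell, with a median of 0.12, and over all genes 5.06% were higher and 6.9% lower. Both means lay above the background range for 16 of the 27 and 12 of the 26. Among the 11395 genes with a mean above that range 1147 were higher and 1536 lower. Among ligands of the collagen receptors Col5a2 rose by 3.79, Col1a1 by 3.03, Col4a2 by 2.56 and Col4a1 by 2.19. Col1a2 and Col3a1, named after their values were seen, differed by 0.09 and 0.04 within the background range and did not pass. Of the collagen-binding chains Itga2 fell and Itga10 and Itga11 did not pass, all with both means within the background range. Itga1 was not analysed. The wildtype mean of Col5a2 was within the background range. The 5 that fell, named after their values were seen, were the laminin chain genes Lama1 (-1.48, the knockout mean within the background range) and Lamb1 (-0.36), the basement membrane collagen genes Col4a6 (-1.02) and Col4a5 (-0.98), and the perlecan gene Hspg2 (-0.57). For the fibronectin receptor, Itga5 rose by 0.80 while Fn1, the fibronectin gene, read 12.99, 12.91 and 12.99 in knockout arrays and 13.52, 13.55 and 13.54 in wildtype arrays, a log2 fold change of -0.57 (SE 0.05). The ligand genes of Itga9, which itself changed by -0.97, went both ways. Svep1 averaged 10.57 ± 0.11 in knockout and 6.71 ± 0.20 in wildtype cells, the latter within the background range (3.86). Tnc, encoding tenascin-C, rose by 0.39, while Vcam1, encoding VCAM-1, changed by -0.59.

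The αv receptors had the largest fall and several rises among their ligand genes. Postn, encoding periostin, a ligand of αv receptors, averaged 6.39 ± 0.05 in knockout and 12.36 ± 0.10 in wildtype cells, a log2 fold change of -5.97, with the knockout mean within the background range. Of genes tied to latent TGF-beta, Tgfb2, the isoform whose prodomain lacks the RGD motif that αv integrins bind, averaged 10.78 ± 0.16 in knockout and 9.55 ± 0.15 in wildtype cells, and Ltbp1, a matrix tether of latent TGF-beta, 10.50 ± 0.03 in knockout and 9.18 ± 0.10 in wildtype cells. These rose by 1.23 and 1.33 while Itgb6 and Itgb8 changed by -3.09 and -0.80. Of the other TGF-beta isoform genes, Tgfb1 differed by 0.31 and did not pass (limma adjusted p = 0.284). Tgfb3 rose by 0.42 (limma adjusted p = 0.0108), from a wildtype mean within the background range. The elastic fibre gene Fbln5 rose by 1.70 and Tgfbi, a secreted RGD protein, by 1.51, both from wildtype means within the background range. Besides Postn and Fn1, the ligand genes that fell were Fras1 (-1.29) and Vcam1 (-0.59), named after their values were seen. Fn1, Tnc, Tgfb1, Tgfb2, Tgfb3 and Ltbp1 were chosen after their values were seen.

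**Figure D5:**
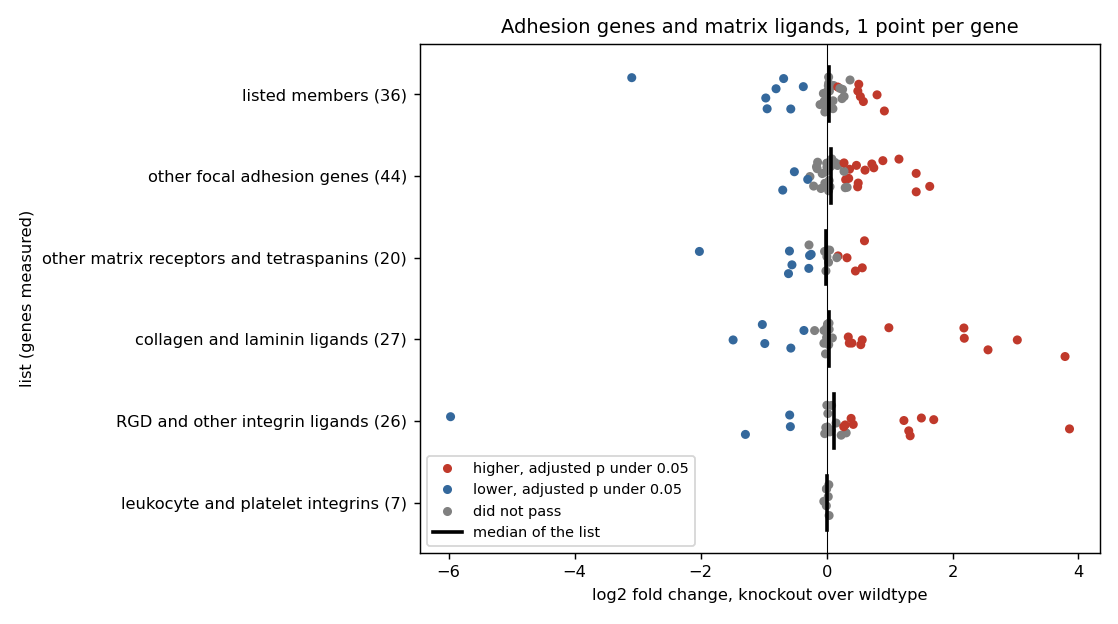
Log2 fold change, knockout over wildtype, of each gene in 6 lists, 1 point per gene, with a black bar at the list median. The medians of all 6 lists lie between -0.002 and 0.12, and the ligand lists reach from -5.97 to 3.86.

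Of 20 measured receptors and tetraspanins outside the set, 5 rose and 7 fell (median -0.002), against 5.06% of all genes higher and 6.9% lower. Both means lay above the background range for 16 of the 20. Among the 11395 genes with a mean above that range 1147 were higher and 1536 lower. Sgcb, a sarcoglycan of the dystroglycan complex, averaged 8.49 ± 0.10 in knockout and 10.51 ± 0.17 in wildtype cells, a log2 fold change of -2.02 (SE 0.10) beside the fall of Dag1. The tetraspanin gene Cd82 changed by -0.60, the integrin-associated Cd47 by -0.59 and the hyaluronan receptor gene Cd44 by 0.60. The others that rose, named after their values were seen, were the tetraspanin genes Cd9 (0.57) and Cd63 (0.18), Sspn (0.46), encoding sarcospan, and the syndecan gene Sdc3 (0.32). The others that fell, also named after their values were seen, were Sdc2 (-0.55), Utrn (-0.28), Sgce (-0.27) and Gpc1 (-0.24). The 7 integrin genes of leukocytes and platelets all had both means within the background range and none was called, the largest differences being -0.04 for Itga2b and 0.04 for Itgad.

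Markers of other cells moved beside these genes. Of 9 tubule epithelial markers 4 fell (Aqp1, at 9.42 ± 0.09 in knockout and 12.92 ± 0.08 in wildtype cells, Cdh16, at 10.10 ± 0.21 in knockout and 11.60 ± 0.06 in wildtype cells, Pax8, with a log2 fold change of -0.73, and Lrp2, with -0.36), and the list's mean level ran from 8.20 to 8.26 in knockout and from 8.83 to 8.98 in wildtype arrays. Of 7 measured mesangial and fibroblast markers 3 rose (Dcn by 4.33, Acta2 by 2.83 and Pdgfrb by 2.36, with the wildtype means of Dcn and Pdgfrb within the background range), and that list ran from 8.57 to 8.65 in knockout and from 7.11 to 7.21 in wildtype arrays. The uncalled tubule markers Umod, Slc12a1, Slc12a3 and Epcam had both means within the background range. So did the uncalled mesangial and fibroblast markers Cspg4, Des, Lum and Thy1. Over all genes 5.06% were higher and 6.9% lower, and 23.5% of genes with a mean above the background range were called. All 7 endothelial markers had both means within the background range. Of 7 leukocyte markers Csf1r changed by -1.21 and Cd68 by 0.57 (adjusted p = 0.0471, a call lost without any one of 5 arrays), and the other 5 had both means within that range. The part of these markers in the changes of Itgb6, an epithelial integrin gene, and of Itga5 was not tested, and in RNA of whole cultures fewer cells of a type and less RNA per cell cannot be told apart.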

How the data were processed

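RNA of 3 knockout and 3 wildtype samples was measured on Affymetrix arrays. The authors deposited log2 intensities per probe set; the submitters' processing notes name affy 1.44.0 and RMA, with no probe definition file or filter stated. Symbols came from the platform annotation, with names updated through a RefSeq table of assembly GRCm38.p6, which also gave chromosomes and gene order: 31269 of 72688 probe sets named 1 gene and 1481 several, giving 30712 genes. Differences, knockout minus wildtype, were tested in limma 3.58.1 under R 4.3.3 (lmFit, eBayes, two-sided, no covariate, no filter), adjusted over all genes by the method of Benjamini and Hochberg, with calls at 0.05. Errors are SDs over 3 arrays or limma standard errors. Promoter windows and sequences came from a RefSeq table of the same build, and those of chromosome 18 were left out of the motif search. Pairs were compared by an exact permutation test on per-array log2 differences. Genes outside the set were named by a rule: of each list up to 4 called genes with the largest change, or the leading 2 where none was called, the called markers, Nck1 and Nck2; exceptions are stated. The members, pairs and lists were chosen with earlier results of these data known. The scripts were tested on simulated data. Figures used matplotlib 3.10.9 in Python 3.11.15.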

Additional observations from a re-analysis of the deposited data

How the results depend on the processing

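The alternatives left out each array in turn, added a replicate block, renormalized, took chromosome medians off, used other moderation, filtered dim genes, averaged probe sets, dropped genes with identical values in a group, or tested all probe sets. Of 517 recomputed member values 486 stayed on their side of the threshold, 17 lost a call (Tln1, Tns1 and Itgb8) and 14 gained one (Ilk, Itga7, Cd151, Ddr2 and Itgb5). The sign changed in 14, all of members that were not called. Leaving out 1 array gave 11 to 15 called members (6 to 8 higher, 5 to 7 lower) and 2080 to 3390 called genes (878 to 1452 higher, 1198 to 2011 lower), against 14 members and 3673 genes with all arrays; the lowest counts of genes came without wildtype replicate 3 (2080), knockout replicate 1 (2235) and knockout replicate 2 (2313). With only genes above the highest background probe set tested, 4 members were lower, since Itga2, Itga9 and Itgb8 were not tested there. With chromosome medians taken off, 2365 genes were higher and 1714 lower, against 1553 and 2120, and the members called were 9 higher and 7 lower. With all probe sets tested 2500 features were higher, as more were tested. The replicate block gave 3766 genes and 14 members; replicate numbers correlated at 0.348, 0.275 and 0.0402 (deviations from group means), knockout replicate 3 correlated best with another number, and the samples are taken to share only a number. Of 240 recomputed pair differences 4 changed sign, none of them among pairs without overlap, and none could reach 0.05. Levels within the background range limit what the ratios of Itgb6, Itga9, Itgb8, Itgb3, Itga2 and Lims2 show, and those of the ligand and marker genes named as within it.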
